A study of Mus musculus with 7 samples.

Results

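The genes described here encode chromatin remodelers and enzymes that add or remove methyl groups on histone lysines. They are the rows of the count table whose symbol begins with Kmt2 or Kmt5, Kdm1 to Kdm8, Setd followed by a digit, Arid1 to Arid5 or Smarc, or is one of Chd1 to Chd9. Kdm5c, Kdm5d and Kdm6a, which lie on the sex chromosomes, were left out. This rule uses names and no measured value, though it was chosen with earlier results of these data known. It took 64 of the 24552 gene symbols. They were followed in EpCAM-positive cholangiocytes, the epithelium that lines the bile ducts, sorted from livers of Foxp3GFPDTR mice. One group was given diphtheria toxin intraperitoneally at 1 µg/kg (DT, 3 libraries) and the other PBS (4 libraries), in both cases every 48 h. Mice of both groups were fed DDC, a compound that injures the bile ducts, for 10 days, so no library came from an uninjured liver, and both groups carry the transgene. The strain makes the toxin receptor in Foxp3-positive regulatory T cells, and whether these cells were lost was not measured here. The labels do not say whether each library came from 1 animal or a pool, nor give sex or age, so the p-values below take in no more than the scatter among these 7 libraries, part of which may be technical.

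Histone lysine methylation marks parts of a gene. Methylation of H3 lysine 4, laid down by the MLL and SET1 enzymes, marks promoters and enhancers, that of H3 lysine 36 marks transcribed gene bodies, and the Kdm demethylases take such marks off again. The SWI/SNF, ISWI and CHD proteins use ATP to move or evict nucleosomes, and most of them act in large complexes whose other subunits, among them ARID proteins, help to choose the sites. In liver, SWI/SNF subunits such as Arid1a are known from regeneration and from liver and bile duct tumours, where ARID1A is often mutated in humans.

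Libraries held 5683824 to 6285624 counts in DT and 4805018 to 5499832 in PBS, with reads for 5419 to 7920 genes in DT and 5967 to 8361 in PBS. All 12 cholangiocyte markers listed had reads, at 2.44% to 2.59% of counts in DT and 2.22% to 2.68% in PBS. Of the measures that follow, the nuclear RNAs and the hepatocyte markers were separate between the groups, and the ranges of the others overlapped. The part of these measures in the results was not tested. The nuclear RNAs Malat1 and Neat1 made up 0.586% to 0.719% of counts in DT and 1.21% to 1.51% in PBS, and the ribosomal RNA row Rn45s 3.45% to 4.64% in DT and 2.63% to 3.52% in PBS. Hepatocyte markers, 16 of 19 with reads, took 0.403% to 0.531% in DT and 0.234% to 0.371% in PBS, with the hepatocyte enzymes Cyp3a11, Cps1 and Ass1 at 0 throughout. Macrophage and monocyte markers, 17 of 20 with reads, took 0.167% to 0.199% in DT and 0.0910% to 0.238% in PBS, with Adgre1, Ccr2 and Lyz1 at 0. Endothelial markers (5 of 10 with reads, the sinusoidal genes Stab1, Lyve1 and Clec4g at 0) stayed at or below 0.00612%, stellate cell and fibroblast markers (7 of 10 with reads, Lrat, Pdgfrb and Des at 0) at or below 0.0133%, and of 13 lymphocyte markers 12, Cd3e and Foxp3 among them, had no read in any library. Y-linked reads were present in all 3 DT libraries and in PBS 1, and absent in PBS 2 to 4. Apart from PBS 1, the presence of Y-linked reads and the treatment thus cannot be told apart. In bulk libraries fewer cells of a type and less RNA per cell cannot be told apart either.

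No member passed the test across all genes in either direction. In simulated counts, described below, this test missed most of the changes put in, so a missing call does not show that a gene was unchanged. Of the 64 members 6 had no read in any library, 30 had reads in all 7, and 51 passed the filter on low counts and were tested. By the edgeR quasi-likelihood test, with Benjamini-Hochberg adjusted p at most 0.05, 0 of 51 were higher and 0 lower in DT, against 0% and 0.039% of all 7688 tested genes. At an unadjusted edgeR p below 0.05, 2 members were higher and 2 lower, where 1.39% and 2.11% of all tested genes were. DESeq2 called 1 of its 48 members with an adjusted p higher, which was Setd4, and 1 lower, which was Kmt2a, against 0.61% and 1.77% of 7701 genes. Limma-voom called 0 members in each direction, against 0.078% and 0.078% of genes. The groups did not overlap, in CPM (a gene's counts scaled to a common library size, with factors from the trimmed mean of M-values, TMM), for 2 members with all DT libraries above all PBS libraries, Smarcb1 and Setd4, and for 4 with all DT libraries below, Kmt2a, Chd4, Arid1a and Smarce1. The same held for 3.76% and 2.61% of all tested genes.

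Promoters are shown for Kmt2a, the member with the smallest p among those lower in DT, and for Setd4 and Smarcb1, the 2 with the smallest p among those higher in DT. Each window runs from 250 bases before to 50 after the annotated start, on the strand of the gene, from RefSeq on GRCm38.p6, another build than the mm9 of the counts. Capitals mark GGGCGG and its reverse complement CCGCCC, the GC box bound by SP factors. The windows lie at chr9:44881240-44881539, chr16:93603766-93604065 and chr10:75921565-75921864, each on the minus strand.
Kmt2a: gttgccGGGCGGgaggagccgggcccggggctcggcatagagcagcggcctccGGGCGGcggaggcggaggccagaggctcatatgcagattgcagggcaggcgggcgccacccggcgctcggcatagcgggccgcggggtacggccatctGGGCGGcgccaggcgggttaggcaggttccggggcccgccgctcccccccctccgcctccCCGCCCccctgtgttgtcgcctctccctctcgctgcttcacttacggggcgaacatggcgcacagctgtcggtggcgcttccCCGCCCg
Setd4: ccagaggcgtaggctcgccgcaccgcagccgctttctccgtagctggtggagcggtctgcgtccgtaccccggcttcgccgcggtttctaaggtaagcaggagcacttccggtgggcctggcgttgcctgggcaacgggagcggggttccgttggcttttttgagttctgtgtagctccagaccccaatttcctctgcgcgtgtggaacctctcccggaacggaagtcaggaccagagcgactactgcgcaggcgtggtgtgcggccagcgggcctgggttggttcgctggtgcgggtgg
Smarcb1: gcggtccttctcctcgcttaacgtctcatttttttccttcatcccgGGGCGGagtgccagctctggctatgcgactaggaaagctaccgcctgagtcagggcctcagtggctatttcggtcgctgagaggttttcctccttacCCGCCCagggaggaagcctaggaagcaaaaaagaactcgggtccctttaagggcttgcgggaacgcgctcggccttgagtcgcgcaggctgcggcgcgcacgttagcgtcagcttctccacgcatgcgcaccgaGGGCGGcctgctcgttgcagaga
The window of Kmt2a held 5 GC boxes, that of Smarcb1 3 and that of Setd4 0, where 35.7% of all 32851 windows in the RefSeq table held at least 1. None of the 3 held TATAAA on either strand, which 13.6% of all windows did. CG dinucleotides numbered 36 in Kmt2a, 29 in Setd4 and 27 in Smarcb1, against a median of 7 over all windows. A comparison over the whole list is void, since 47 of the 64 members (73.4%) had a window in the table. The counts are of 3′ ends and measure nothing at these promoters.

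Negative fold changes were somewhat more frequent than positive ones. Of the 51 tested members, 22 had a positive and 29 a negative log2 fold change (DT over PBS), with a median of -0.29, beside 3793 and 3895 of all tested genes, with a median of -0.02. Among the 30 members with reads in every library 10 were positive and 20 negative, with a median of -0.39, beside 1386 and 1393 of 2779 such genes, with a median of -0.0036. These counts describe the list and carry no test, since members share libraries and are not replicates. Among the 51 tested, a gene read in only 1 group can also pass the filter through that group alone. The median over the tested members was weakest without PBS 2, at -0.066, and it turned positive, to 0.31, when Y-linked reads (present or absent) entered the fit. In that fit the median of all genes also moved, to 0.67, so that the members again lay below it.

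**Figure D1:**
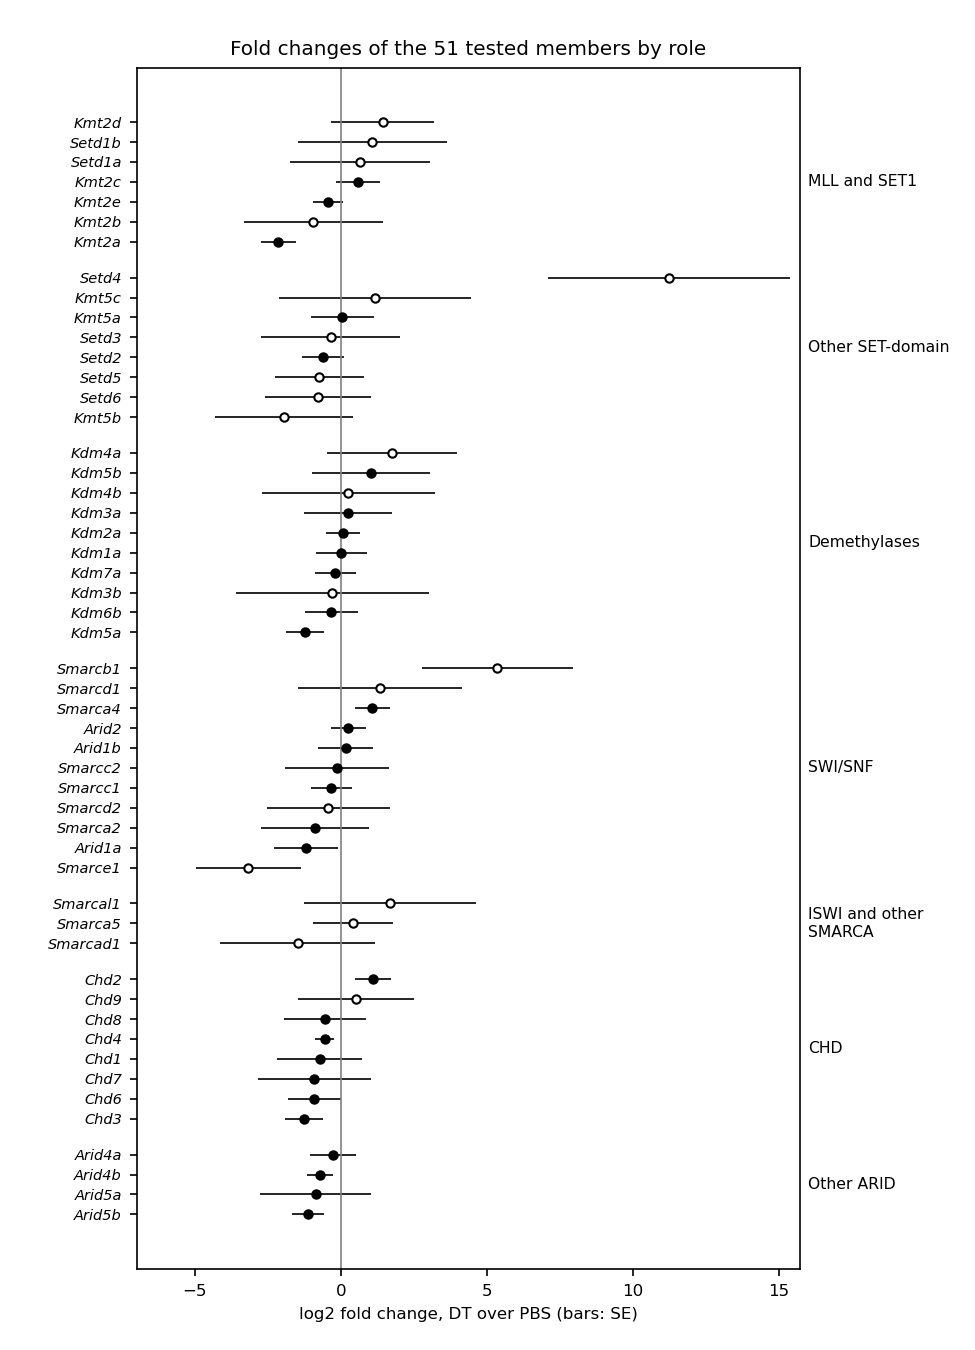
Log2 fold change (x axis, DT over PBS, from the edgeR fit) of each of the 51 tested members, grouped by role, with the SE as a bar. Filled points are members with reads in all 7 libraries and open points are members at 0 in at least 1; the widest bars belong to open points, and Setd4 at 11.23 has no read in any PBS library.

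Summed over the 64 members, expression was lower in every DT library than in every PBS library. The sums were 4872, 6457 and 6024 CPM in DT 1 to 3, against 6709, 7426, 6914 and 7137 CPM in PBS 1 to 4, which gives 5784 ± 819 CPM in DT (SD, n = 3) and 7047 ± 307 CPM in PBS (SD, n = 4). The ratio of the means was 0.821, and it was 0.875 without DT 1, which had the fewest genes with reads. The difference was not even over the roles. The CHD ATPases summed to 1169, 1189 and 1273 CPM in DT 1 to 3, against 1717, 1614, 1616 and 1568 CPM in PBS 1 to 4, a ratio of 0.743, and the other ARID proteins to 444, 735 and 677 CPM in DT 1 to 3, against 1197, 1113, 1111 and 841 CPM in PBS 1 to 4, a ratio of 0.581. In both roles all DT libraries lay below all PBS libraries. The SWI/SNF subunits summed to 1310 ± 71.9 CPM in DT and 1246 ± 182 CPM in PBS, and the demethylases to 1121 ± 411 CPM in DT and 1187 ± 202 CPM in PBS. For these, as for the MLL and SET1 enzymes (856 ± 144 CPM in DT and 1076 ± 265 CPM in PBS), the other SET-domain enzymes (523 ± 66.6 CPM in DT and 689.5 ± 215 CPM in PBS) and the ISWI group (145 ± 123 CPM in DT and 154 ± 49.97 CPM in PBS), the groups overlapped. Without the CHD ATPases the sum of the other 55 members was 3702, 5267 and 4751 CPM in DT 1 to 3 and 4993, 5812, 5299 and 5569 CPM in PBS 1 to 4, with DT 2 above PBS 1. The sum without the other ARID proteins, whose ratio was lower than that of the CHD ATPases, was not taken. This overlap thus does not single out the CHD ATPases. No p is given for these sums, whose members share libraries and whose roles were chosen with earlier results of these data known.

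**Figure D2:**
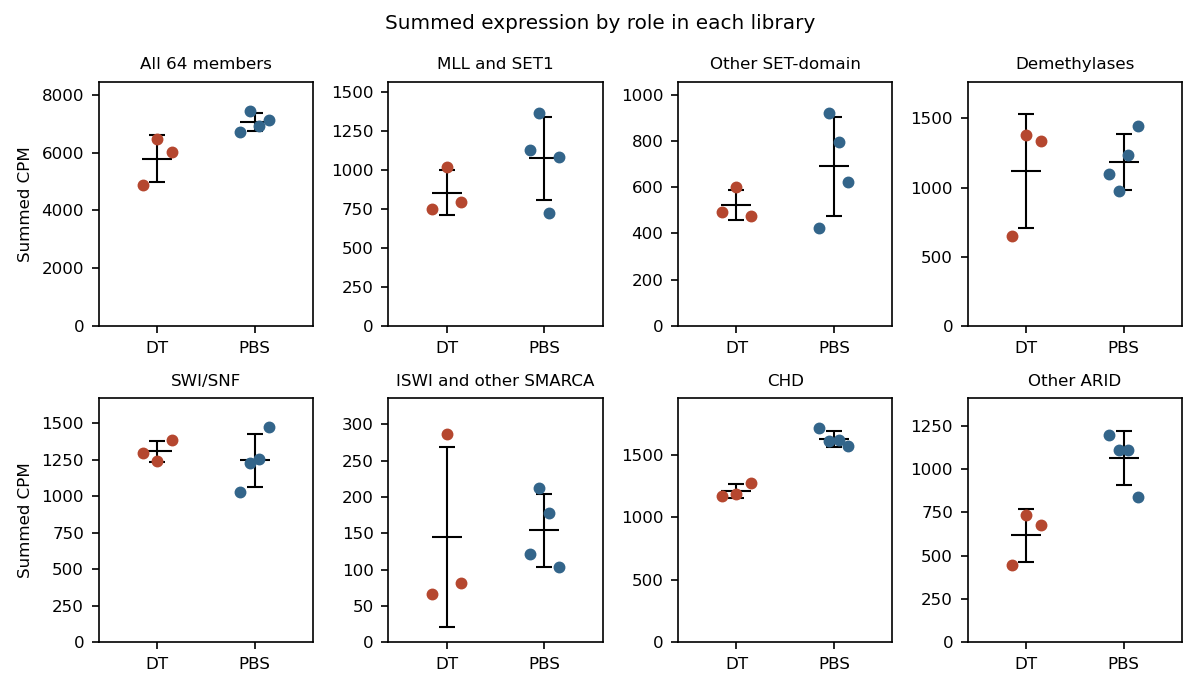
Summed CPM (y axis, from 0) of all 64 members and of each role, with 1 point per library, DT left and PBS right, and the mean ± SD as bars. The DT points lie below the PBS points for all members, the CHD ATPases and the other ARID proteins, and overlap them in the other panels.

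Among the MLL and SET1 enzymes, Kmt2a had the most negative fold change, and it did not pass the edgeR test. Kmt2a, whose GC-rich promoter is printed above, encodes MLL1, which methylates H3 lysine 4 at promoters. It was at 50.7, 68.9 and 119 CPM in DT 1 to 3, against 204, 597, 399 and 208 CPM in PBS 1 to 4. Every DT library thus lay below every PBS library. The means were 79.6 ± 35.4 CPM in DT (SD, n = 3) and 352 ± 187 CPM in PBS (SD, n = 4). On the log2 scale DT was at -2.14 relative to PBS (SE 0.60, edgeR adjusted p = 0.642), the smallest p of all members. DESeq2 called it lower (-2.19, DESeq2 adjusted p = 0.00306), limma-voom did not (adjusted p = 0.651), and without 1 library at a time the edgeR value ran from -2.55 to -1.76. In no other enzyme of the class did all DT libraries lie below all PBS libraries. Of the 7 tested, 4 had positive and 3 negative log2 fold changes. The negative ones were Kmt2a, Kmt2b (-0.94, SE 2.38) and Kmt2e (-0.45, SE 0.52). Kmt2e, a relative without known methyltransferase activity, had the highest mean level of the class, with 125, 339 and 429 CPM in DT 1 to 3 and 693, 454, 96.5 and 386 CPM in PBS 1 to 4. Kmt2c and Kmt2d encode the enzymes that place H3 lysine 4 monomethylation at enhancers. Kmt2c was at 259, 208 and 112 CPM in DT 1 to 3 and 119, 36.1, 93.2 and 267 CPM in PBS 1 to 4 (log2 fold change 0.58, SE 0.76, edgeR adjusted p = 1.00). Kmt2d was at 207, 65.8 and 104 CPM in DT 1 to 3, and at 0, 117, 0 and 68.4 CPM in PBS 1 to 4 (1.44, SE 1.76, edgeR adjusted p = 1.00). Its value depended on the fit, at 0.85 without DT 1, 2.46 without PBS 2 and 3.80 by limma-voom, with no call in any of these. With the Y-linked covariate, which sets DT against PBS 1 alone, where Kmt2d had no read, the value was 12.42. Kmt2c and Kmt2d both overlapped between the groups. Kmt2b, the closest relative of Kmt2a, had no read in DT 1, DT 3 and PBS 1 and 69.8 to 121 CPM in the other libraries. The SET1 enzymes Setd1a and Setd1b were read in 6 libraries each, at 1.14 to 181 CPM where read.

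Among the other SET-domain genes, Setd4 was the one that DESeq2 called higher. It had 843, 25 and 140 counts in DT 1 to 3 and 0 counts in each of the 4 PBS libraries. In DT its level spread widely, from 4.56 CPM in DT 2 to 137 CPM in DT 1. The DT mean of 55.1 ± 71.3 CPM was 94.6 times a floor of 3 counts in each PBS library. Without DT 1, which held most of these reads, the DT mean was 24.6 times that floor. The floor covers counting error only, so these values are no lower bound on the difference. Setd4 passed the filter through its DT reads alone. The fitted value of 11.23 on the log2 scale (SE 4.14, edgeR adjusted p = 1.00, DESeq2 adjusted p = 0.00944) depends on how the 0 counts are treated. Without DT 1 it was 9.24, and without any other single library it lay between 11.24 and 11.77. Zeros were frequent in these libraries at such levels. Of genes with a mean of 20 to 50 CPM over the 7 libraries, the class of Setd4, 33.5% of all values were 0, beside 28.6% for the 6 members in that class. At 100 to 200 CPM the shares were 2.52% for all genes and 2.04% for members, and above 200 CPM 0.179% and 0%. The means that set these classes include the zeros themselves, so the shares do not tell how likely the PBS zeros of Setd4 were.

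Setd2, the enzyme that trimethylates H3 lysine 36, had the highest mean level of this class, with 136, 119 and 129 CPM in DT 1 to 3 and 109, 354, 189 and 127 CPM in PBS 1 to 4, and the groups overlapped. Kmt5a, which monomethylates H4 lysine 20, was at 80.6, 145 and 108 CPM in DT 1 to 3 and 37.9, 186, 119 and 90.6 CPM in PBS 1 to 4, with nearly the same mean in both groups (111 ± 32.2 CPM in DT and 109 ± 61.9 CPM in PBS). Kmt5b and Kmt5c, which add the further methyl groups at that residue, stood at -1.95 and 1.17 on the log2 scale (SE 2.37 and 3.28), with reads in 6 and 3 libraries. Setd5, Setd6 (which methylates the NF-kB subunit RelA) and Setd3 (the histidine methyltransferase of actin) had fold changes of -0.74, -0.79 and -0.35 on the log2 scale (SE 1.52, 1.82 and 2.39), each with no read in at least 1 DT library. Setd7 had 13 counts in PBS 1 alone and was not tested.

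Of the 10 tested demethylases 6 had positive and 4 negative fold changes, and 0 passed the edgeR test. Kdm1a, the flavin-dependent LSD1 that removes methyl groups from H3 lysine 4, was at 86.1, 126 and 181 CPM in DT 1 to 3 and 106, 152, 108 and 156 CPM in PBS 1 to 4. Kdm2a, an H3 lysine 36 demethylase, was at 89.96, 151 and 439 CPM in DT 1 to 3, against a narrow 195, 208, 237 and 218 CPM in PBS 1 to 4. Its DT libraries lay on both sides of the PBS range. The H3 lysine 4 demethylases Kdm5a and Kdm5b pointed in opposite directions. Kdm5a was at 19.9, 169.5 and 184 CPM in DT 1 to 3, against 274, 95.3, 483 and 316 CPM in PBS 1 to 4 (log2 fold change -1.23, SE 0.66, edgeR adjusted p = 1.00), and the groups overlapped through PBS 2. Kdm5b was at 104, 90.04 and 68.2 CPM in DT 1 to 3, and at 34.9, 36.4, 0.404 and 100.3 CPM in PBS 1 to 4 (1.02, SE 2.01, edgeR adjusted p = 1.00). PBS 4 alone reached the DT range. Of the reads of the pair, Kdm5a took 16.1%, 65.3% and 72.9% in DT 1 to 3 and 88.7%, 72.3%, 99.9% and 75.9% in PBS 1 to 4. These shares overlapped, by the small margin between DT 3 and PBS 2.

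Kdm6b (JMJD3), which removes H3 lysine 27 methylation and is known as an inflammation-induced gene in macrophages, was at 112, 158 and 66.2 CPM in DT 1 to 3 and 88.7, 215, 188 and 74.3 CPM in PBS 1 to 4. Kdm7a was at 41.0, 334 and 121 CPM in DT 1 to 3 and 309, 102, 76.8 and 271 CPM in PBS 1 to 4, and the H3 lysine 9 demethylase Kdm3a at 109, 28.6 and 141 CPM in DT 1 to 3 and 2.46, 49.4, 119.7 and 143 CPM in PBS 1 to 4. All of these overlapped widely, and their log2 fold changes lay between -0.33 and 0.24. Kdm3b, Kdm4a and Kdm4b were tested with reads in 3, 5 and 6 libraries and gave -0.29, 1.76 and 0.25 on the log2 scale (SE 3.31, 2.23 and 2.97). Kdm2b, Kdm4c and Kdm8 had reads in 2, 3 and 1 libraries and were not tested. Kdm1b and Kdm4d had none.

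**Figure D3:**
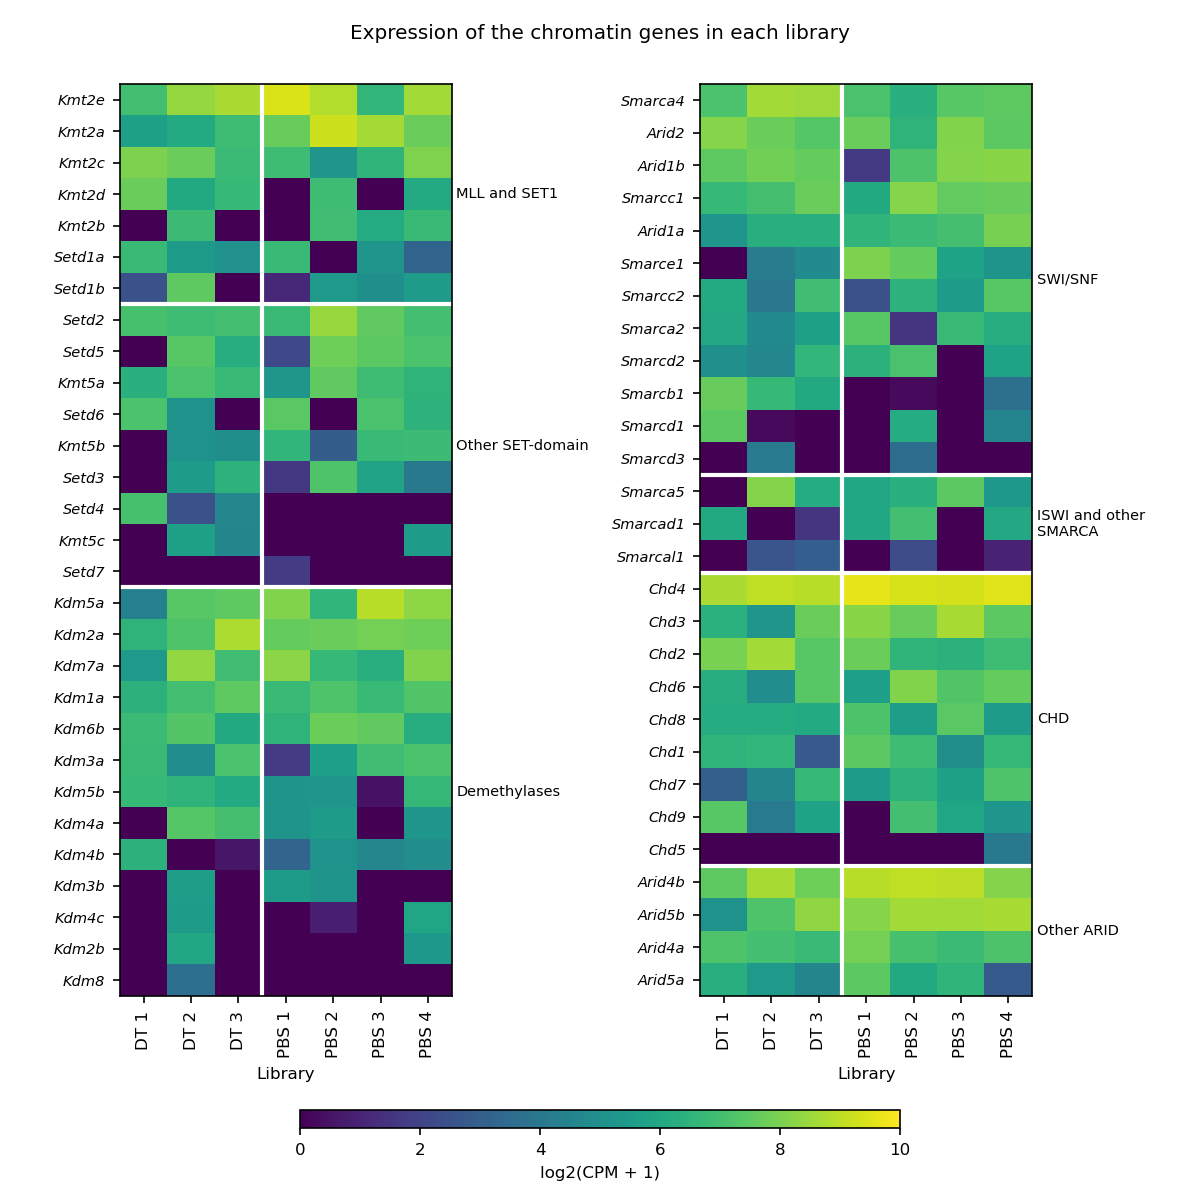
Expression of the members with reads, as log2(CPM + 1) in colour, with 1 column per library (DT left of the white line, PBS right) and genes ordered by role and mean level; the pseudogene Smarca5-ps, with 1 count, is not drawn. The darkest cells are counts of 0, which lie mostly among the genes of lower mean level, while Chd4 is bright in all 7 libraries.

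Within SWI/SNF, the complex built around the ATPase Smarca4 (BRG1) or Smarca2 (BRM), 5 of the 11 tested subunits had positive and 6 negative fold changes, and 0 passed the edgeR test. Smarcb1, a core subunit, had 1269, 565 and 383 counts in DT 1 to 3, against 0, 1, 0 and 62 counts in PBS 1 to 4. All DT libraries lay above all PBS libraries, at 125 ± 72.5 CPM in DT (SD, n = 3) and 3.02 ± 5.90 CPM in PBS (SD, n = 4), and the fold change was 5.35 on the log2 scale (SE 2.59, edgeR adjusted p = 1.00, DESeq2 adjusted p = 0.102). That value was 10.48 without PBS 4. Smarce1, which encodes the DNA-binding subunit BAF57, showed the reverse order. It had 0, 96 and 160 counts in DT 1 to 3, against 1358, 1024, 273 and 186 counts in PBS 1 to 4. The means were 14.998 ± 13.9 CPM in DT and 136 ± 108 CPM in PBS (log2 fold change -3.18, SE 1.79, edgeR adjusted p = 1.00, DESeq2 adjusted p = 0.1897), and in CPM no DT library reached a PBS library.

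The ATPases and the ARID subunits of SWI/SNF were better read. Smarca4 was at 144, 387 and 370.2 CPM in DT 1 to 3, against 139.5, 80.6, 169.9 and 180.4 CPM in PBS 1 to 4 (log2 fold change 1.08, SE 0.59, edgeR adjusted p = 1.00). DT 2 and DT 3 stood about level with each other and above all PBS libraries, while DT 1 lay within the PBS range. Smarca2 was at 64.5, 27.7 and 51.04 CPM in DT 1 to 3 and 170.0, 1.93, 108 and 74.5 CPM in PBS 1 to 4. Smarca4 took 69.0%, 93.3% and 87.9% of the reads of the pair in DT 1 to 3 and 45.1%, 97.7%, 61.0% and 70.8% in PBS 1 to 4, which overlap. Arid1a, the DNA-binding subunit of the BAF form, was at 35.8, 76.2 and 79.1 CPM in DT 1 to 3, against 91.9, 113, 133 and 247 CPM in PBS 1 to 4. No DT library reached the lowest PBS library (log2 fold change -1.19, SE 1.10, edgeR adjusted p = 1.00, DESeq2 adjusted p = 0.753). Its alternative in the same position, Arid1b, was at 181, 231 and 198 CPM in DT 1 to 3, and at 2.27, 147, 281 and 299 CPM in PBS 1 to 4, around the DT values except for PBS 1. Arid1b made up 83.5%, 75.2% and 71.5% of the reads of the pair in DT 1 to 3 and 2.41%, 56.5%, 67.9% and 54.8% in PBS 1 to 4, higher in every DT library than in every PBS library. This pair and the other pairs were set side by side after their values were seen, and no test is given.

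Arid2, the ARID subunit of the PBAF form, was at 288, 212 and 165 CPM in DT 1 to 3 and 211, 89.5, 272 and 177 CPM in PBS 1 to 4. The scaffold subunit Smarcc1 was at 104, 133 and 211 CPM in DT 1 to 3 and 66.0, 290.4, 194 and 203 CPM in PBS 1 to 4, and its partner Smarcc2 at 68.2, 15.1 and 120.5 CPM in DT 1 to 3 and 4.55, 86.2, 44.1 and 166 CPM in PBS 1 to 4. For these 3 subunits the groups overlapped and the log2 fold changes were 0.25, -0.33 and -0.15 (SE 0.60, 0.70 and 1.78). Of the Smarcd subunits, Smarcd1 and Smarcd2 were tested with reads in 4 and 6 libraries (log2 fold changes 1.33 and -0.44, SE 2.81 and 2.11). Smarcd3, known from muscle and heart, had 90 counts in DT 2 and 55 in PBS 2 alone and was not tested. Of the remaining SMARCA ATPases, Smarca5, the ATPase of the ISWI complexes, was at 0, 282 and 72.7 CPM in DT 1 to 3 and 61.0, 79.8, 178 and 39.4 CPM in PBS 1 to 4, and its fold change was negative without DT 2. Smarcad1 and Smarcal1, a helicase that rejoins DNA strands at stalled forks, had reads in 5 and 4 libraries. Smarca1, the ISWI ATPase known mainly from neural tissue, had none, and the pseudogene Smarca5-ps had 1 count in PBS 3. How reads shared by Smarca5 and this copy were counted is not given, so both values are uncertain.

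The CHD ATPases held the best-read member of all. Chd4, the ATPase of the NuRD complex, which couples remodeling with histone deacetylation, was at 428, 520.4 and 491 CPM in DT 1 to 3, against 790.3, 665, 649.9 and 727 CPM in PBS 1 to 4. Its highest DT library lay below its lowest PBS library. The means were 479.8 ± 47.5 CPM in DT (SD, n = 3) and 708 ± 64.2 CPM in PBS (SD, n = 4). The fold change was -0.56 on the log2 scale (SE 0.33, edgeR adjusted p = 1.00, DESeq2 adjusted p = 0.2198), and lay between -0.62 and -0.50 with any 1 library omitted. Chd3, the alternative NuRD ATPase, was at 82.7, 36.6 and 217 CPM in DT 1 to 3, against 296, 204, 412 and 177 CPM in PBS 1 to 4 (-1.28, SE 0.65, edgeR adjusted p = 1.00). DT 3 alone reached the PBS range, and the value was -2.19 without it. Chd2, in contrast, was at 251, 395 and 167 CPM in DT 1 to 3, against 214, 92.4, 84.5 and 117 CPM in PBS 1 to 4 (1.10, SE 0.63, edgeR adjusted p = 1.00), with PBS 1 inside the DT range. Of the 8 tested CHD genes 2 had positive and 6 negative values, the median being -0.65 on the log2 scale, and 0 passed the edgeR test. The sum of the class without Chd4 was still 742, 669 and 782 CPM in DT 1 to 3, against 926, 949 and 966 CPM in PBS 1 to 3 and 841 CPM in PBS 4.

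Chd1, which binds H3 methylated at lysine 4, was at 88.8, 97.1 and 5.84 CPM in DT 1 to 3 and 178, 118, 29.5 and 101 CPM in PBS 1 to 4. Chd6 was at 73.6, 29.0 and 167 CPM in DT 1 to 3 and 48.9, 273, 156 and 199.9 CPM in PBS 1 to 4, and Chd7, the gene mutated in CHARGE syndrome in humans, at 7.13, 23.0 and 102 CPM in DT 1 to 3 and 43.8, 87.2, 51.2 and 149 CPM in PBS 1 to 4. Each of these had a lower mean in DT with a wide overlap. Chd8, which is known as a repressor of beta-catenin targets, was at a near constant 71.3, 72.0 and 68.4 CPM in DT 1 to 3, while PBS 1 and PBS 3 were at 145 and 174 CPM and PBS 2 and PBS 4 at 47.6 and 43.7 CPM. The log2 fold changes of Chd1, Chd6, Chd7 and Chd8 were -0.73, -0.91, -0.91 and -0.53 (SE 1.45, 0.90, 1.94 and 1.40). Chd9 was read in 6 libraries (0.51, SE 1.99). The NuRD ATPase of neurons, Chd5, had 82 counts in PBS 4 alone and was not tested.

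All 4 tested ARID proteins outside SWI/SNF had negative fold changes, and 0 of them passed the edgeR test. Arid5b, a partner of a histone demethylase, was at 34.5, 150.2 and 320.4 CPM in DT 1 to 3, against 289, 389, 388 and 408 CPM in PBS 1 to 4. Only DT 3 came above the lowest PBS library, and the DT libraries spread far more widely than the PBS libraries (168 ± 144 CPM in DT and 369 ± 53.8 CPM in PBS). The log2 fold change was -1.13 (SE 0.55, edgeR adjusted p = 1.00), -0.67 without DT 1 and -1.99 without DT 3. Arid4b, a subunit of the SIN3 deacetylase complex, was the best-read gene of the class, with 182, 414 and 224 CPM in DT 1 to 3, against 490.4, 522 and 519 CPM in PBS 1 to 3 and 279 CPM in PBS 4 (-0.72, SE 0.43, edgeR adjusted p = 1.00). Its relative Arid4a was at 152, 129 and 110.2 CPM in DT 1 to 3 and 242, 135, 112 and 148 CPM in PBS 1 to 4. Arid5a, which stabilises inflammatory mRNAs, was at 75.2, 41.0 and 23.0 CPM in DT 1 to 3 and 175, 66.9, 92.0 and 6.13 CPM in PBS 1 to 4. Both overlapped, with log2 fold changes of -0.28 and -0.87 (SE 0.78 and 1.89). Arid3a, Arid3b and Arid3c had no read in any library, so that each may have up to 3 counts per library by counting error.

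**Figure D4:**
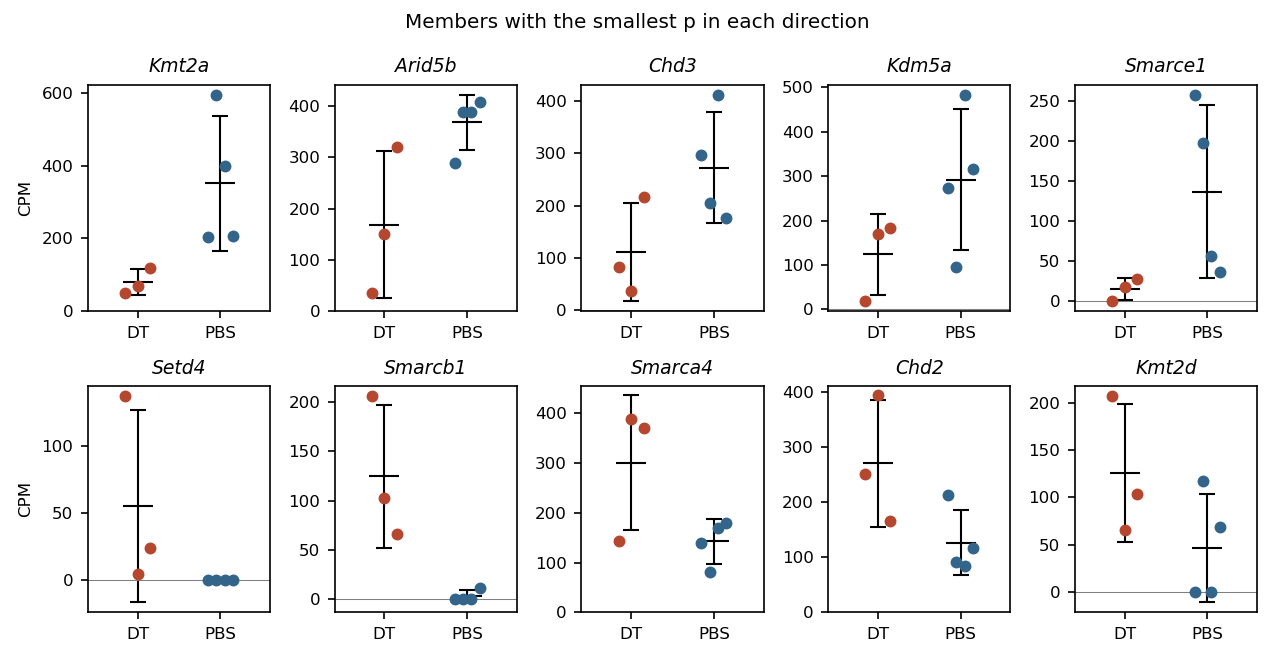
CPM (y axis) of the 5 members with the smallest edgeR p among those lower in DT (top row) and among those higher in DT (bottom row), with 1 point per library, DT left and PBS right, and the mean ± SD as bars. The points of the groups are separate for Kmt2a, Smarce1, Setd4 and Smarcb1 and overlap for the other 6 genes.

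The members with the highest mean levels were Chd4, Arid4b, Kmt2e and Arid5b, at 610.1, 376, 360.4 and 283 CPM over the 7 libraries. In 3′-end libraries a transcript gives reads at its end alone, so these levels are not divided by length. Neighbours in this order were within the spread between libraries, apart from Chd4, whose lowest library (428 CPM) exceeded the mean of every other member. Of the 51 tested members 24 were at 100 CPM or more. The longest annotated transcript of a tested member had a median length of 6654 bases, against 3516.5 bases for 7618 tested genes with a length in GENCODE M21. The 30 members with reads in all libraries had a median coefficient of variation of 43.6% in DT and 54.9% in PBS, beside 47.6% in DT and 49.7% in PBS for 2221 genes of the same range of levels. DT 1 was the lowest library for 10 of these 30 members, and DT 2 and DT 3 for 2 and 3, while PBS 1 to 4 were the lowest for 6, 4, 3 and 2.

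Other genes of the same machinery, from 8 lists of partners and related enzymes, did not pass the test either. Of 158 genes outside the rule, 116 were tested, 51 with positive and 65 with negative log2 fold changes (median -0.09). By edgeR 0 passed in either direction, and the unadjusted p was below 0.05 for 1 that was higher and 7 that were lower, where 1.39% and 2.11% of all tested genes were. All DT libraries lay above all PBS libraries for 7 of the 116 and below them for 5, where 3.76% and 2.61% of all tested genes did. DESeq2 called Bap1 higher, and it called lower Cbx7, a Polycomb gene that the filter had removed and that had 0 counts in each DT library and 451 and 663 counts in PBS 2 and PBS 4 alone, against calls for 0.61% and 1.77% of all genes. Limma-voom called 0 in each direction, against 0.078% and 0.078%. Partners of the CHD and ISWI ATPases had 7 positive and 12 negative values among 19 tested. In that list Baz1a, an ISWI partner, had the smallest p, with 2411, 2754 and 1813 counts in DT 1 to 3, against 4368, 2267, 2922 and 6459 counts in PBS 1 to 4 (log2 fold change -0.94, SE 0.36, edgeR adjusted p = 1.00). Of the Polycomb list, whose products place or read H3 lysine 27 methylation or place or remove the linked ubiquitin mark, 8 were positive and 14 negative. Bap1, the deubiquitinase of that mark, had 226, 602 and 76 counts in DT 1 to 3 and 0 in each PBS library (edgeR adjusted p = 1.00, DESeq2 adjusted p = 0.0114), in the same order as Setd4. Among INO80, SRCAP and other remodelers 10 were positive and 10 negative, and the INO80 ATPase Ino80 had 500, 43 and 76 counts in DT 1 to 3 and 749, 1425, 485 and 1252 counts in PBS 1 to 4 (-2.47, SE 1.08, edgeR adjusted p = 1.00).

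The partners of the MLL and SET1 enzymes showed no shared direction with Kmt2a. Of 12 tested, 6 were positive and 6 negative, with a median of 0.03, and menin (Men1), which binds MLL1, had 0, 732 and 151 counts in DT 1 to 3 and 0, 30, 0 and 0 counts in PBS 1 to 4. Other SWI/SNF subunits split into 5 positive and 5 negative. The gene of smallest p there, Bicral, had 0 counts in each DT library and 181, 146, 0 and 137 counts in PBS 1 to 4 (edgeR adjusted p = 1.00). Histone acetyltransferase genes had 8 positive and 4 negative values (median 1.04 on the log2 scale), and the smallest p belonged to Kat6b (2.26, SE 2.71, edgeR adjusted p = 1.00). Other lysine methyltransferases had 4 positive and 9 negative values, led by Nsd1, an H3 lysine 36 enzyme (1.78, SE 1.49, edgeR adjusted p = 1.00), and other demethylases 3 and 5, led by Phf8 (-1.14, SE 1.90, edgeR adjusted p = 1.00).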

How the data were processed

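Sequencing libraries were made with a QuantSeq FWD kit, which primes at the poly(A) tail and reads 3′ ends, per the labels' protocols. The authors deposited raw read counts for each gene symbol. The build named in the submitters' processing notes is mm9. The aligner, the counter and the annotation were not given in the sources used here, so how reads shared by several genes were counted is unknown. Groups and numbers came from the sample titles.

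From the counts, DT was compared with PBS by edgeR 4.0.16 (R 4.3.3, quasi-likelihood F test, robust, two-sided, TMM, filterByExpr), fitted on 7688 genes holding 97.5% of counts, with Benjamini-Hochberg adjustment over all of them. The SE is the size of the log2 fold change divided by the square root of F. DESeq2 1.42.0 and limma-voom (limma 3.58.1) with sample weights were alternatives. Figures used matplotlib 3.10.9. The scripts were tested on counts simulated with the levels and dispersions of these data, in which 200 genes were changed in DT. At a log2 change of 1 the edgeR test recovered 0.5% of changed genes drawn from all levels. Of those drawn at an average log2 CPM of 8 or more it recovered 0%. At a log2 change of 2 these shares were 0.5% and 22.5%. Members, lists and roles were chosen with earlier results of these data known. Values in every library are given for members with reads in all 7, the 5 of smallest p in each direction and the highest of each role, and from each other list the gene of smallest p was named. Cbx7 was named after its values were seen. The floor covers counting error only.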

Additional observations from a re-analysis of the deposited data

Results flagged for a closer look

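In 43 values the lowest and highest PBS library were compared with the other PBS libraries, and 4 had a library at a distance. At a rate of 1 in 20, 2.15 would, but that rate holds for normally distributed values and not for rows of mostly 0. The gap between the outlying library and its nearest neighbour, as a share of the range of the 4 PBS libraries, was 0.872 for Arid4b (PBS 4 low, at 279 CPM) and 0.830 for Arid5b (PBS 1 low, at 289 CPM). Smarcb1 gave 0.984, since PBS 4 had 62 counts and PBS 1 to 3 had 0, 1 and 0. Smarca5-ps, with a single count in PBS 3, gave 1, as any gene read in only 1 PBS library must.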

How the results depend on the processing

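Members called by edgeR numbered 0 in each direction under RLE and upper quartile factors, with no filter, with genes at a mean count of 200 or more, without Rn45s, with the replicate block and without any 1 library (0 to 0). DESeq2 called 1 higher (Setd4) and 1 lower (Kmt2a). With the Y-linked covariate DT 1 to 3 are set against PBS 1 alone, so no calls are given for that fit. Arid1b, at 2.27 CPM in PBS 1, had a log2 fold change of 6.47 there and of 0.16 in the fit reported. The median log2 fold change of the tested members was -0.17 by limma-voom, 0.31 with the Y-linked covariate, and -0.49 to -0.066 when 1 library was left out. The ratio of summed CPM ran from 0.774 to 0.875 for all members and from 0.723 to 0.750 for the CHD ATPases when 1 library was left out, and both kept DT below PBS under every scaling tried (alternatives chosen after seeing the data).

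Signs turned for genes without a call, some of them with values well away from 0, such as Chd6 and Chd7 (both -0.91 in the fit reported), Smarca2 (-0.89) and Setd2 (-0.60). With the Y-linked covariate, which sets DT against PBS 1 alone, these were Chd6 (0.88), Chd7 (0.011), Kdm6b (0.34), Setd2 (0.23), Smarcc1 (1.18) and Smarcc2 (3.90). By limma-voom they were Kdm7a (0.035), Smarca2 (0.32) and Smarca5 (-0.29), and with the replicate block Kdm2a (-0.23), Smarca2 (0.089), Smarca5 (-1.70) and Smarcc2 (1.14). Kmt2d kept its sign and reached 9.46 with the replicate block. Kdm1a was -0.025 with RLE factors and by DESeq2, -0.016 with upper quartile factors, -0.0082 with no filter and -0.014 with a mean count of 200 or more. When 1 library was left out, signs turned within -0.26 to 0.51 for Arid1b, -0.0050 to 0.47 for Arid2, -0.30 to 0.22 for Kdm1a, -0.83 to 0.44 for Kdm2a, -0.21 to 0.70 for Kdm3a, -1.23 to 0.25 for Kdm7a, -0.25 to 0.44 for Kmt5a, -1.29 to 0.98 for Smarca5 and -0.86 to 0.60 for Smarcc2. The cause was not tested. No sign of pairing by replicate number was seen, though so few pairs cannot exclude it. Deviations from the group mean over 733 genes correlated at -0.060, -0.016 and 0.025 between same-numbered libraries. For 1 of the 3 DT libraries the same-numbered PBS library was the closest. With the block, calls over all genes numbered 6 higher and 6 lower, against 0 and 3. The same counts were 47 and 136 by DESeq2, 6 and 6 by limma-voom, and 1 and 7 when genes of low count were kept. Counts of 0 limit what can be seen for members below about 100 CPM.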

Other observations

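The 3 sex-linked enzymes that the rule leaves out had reads of their own, and no comparison is made for them. Kdm5c, an X-linked H3 lysine 4 demethylase, had 54, 0 and 452 counts in DT 1 to 3 and 0, 133, 917 and 228 counts in PBS 1 to 4. Kdm6a, an X-linked H3 lysine 27 demethylase, had 25, 0 and 455 counts in DT 1 to 3 and 0, 305, 192 and 563 counts in PBS 1 to 4. The Y-linked Kdm5d had 0, 121 and 11 counts in DT 1 to 3 and 377, 0, 0 and 0 counts in PBS 1 to 4. Xist, the long RNA that coats the inactive X, was at 453, 0 and 0 counts in DT 1 to 3 and 630, 12089, 17627 and 10420 counts in PBS 1 to 4, so DT 1 and PBS 1 held both Xist and Y-linked reads.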
